A study of Mus musculus with 12 samples.

Results

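Potassium channel genes were taken as every gene in both count tables whose symbol starts with Kcn, apart from the antisense transcript Kcnq1ot1. Of 84 such genes in either table, 73 were in both and 11 were in 1 table only. The 32 with 10 or more counts in 3 or more of the 12 libraries are described, out of 26570 genes in either table. They held 98.9% of all Kcn counts. RNA was sequenced from pieces of skeletal muscle of C57BL/6N mice in 4 groups of 3 libraries. Mice were 6 weeks old at the start and had 18 weeks of regular chow (Chow) or of a high-fat diet (HFD). On the high-fat diet, a further group received 4 daily intraperitoneal injections of 30% DMSO in corn oil (Vehicle), and the last received 50 mg/kg of PCN on the same schedule (PCN). PCN is pregnenolone carbonitrile, a steroid that activates the rodent pregnane X receptor, a nuclear receptor of drug metabolism. All groups share the strain, and which muscle was sampled is not stated. Nothing in the labels states that each library came from a separate mouse, so p-values measure the spread between these samples, which may be technical.

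Potassium channels let potassium leave the cell down its gradient and so hold or restore a negative membrane potential. In skeletal muscle fibres, inward rectifiers hold the resting potential, voltage-gated channels end the action potential, and channels gated by ATP or by calcium link membrane potential to metabolism and contraction. Two-pore-domain channels carry a background leak, and auxiliary subunits shift the gating or traffic of the pore subunits.

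Upstream sequence is shown for a member picked from each comparison below, not always the member with the lowest p. For each, the RefSeq table of promoters holds an entry and the window lies upstream of the annotated gene. Each is the 250 bases before the RefSeq start in GRCm38.p6, written 5′ to 3′ on the gene's strand. Capitals mark E-boxes (CANNTG) and GC boxes (GGGCGG), searched on both strands. Kcnc1 (chr7:46396218-46396467, plus strand) is lower in Vehicle than in HFD, Kcnj2 (chr11:111065914-111066163, plus strand) has the most counts, not divided by length, of the members with separate Chow and HFD libraries, and Kcnq5 (chr1:21961943-21962192, minus strand) has the lowest p in the PCN comparison.
Kcnc1: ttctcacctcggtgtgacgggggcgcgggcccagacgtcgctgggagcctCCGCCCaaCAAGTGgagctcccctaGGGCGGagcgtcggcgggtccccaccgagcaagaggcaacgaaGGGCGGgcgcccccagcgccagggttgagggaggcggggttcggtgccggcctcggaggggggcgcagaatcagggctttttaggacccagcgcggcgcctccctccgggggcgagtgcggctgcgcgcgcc
Kcnj2: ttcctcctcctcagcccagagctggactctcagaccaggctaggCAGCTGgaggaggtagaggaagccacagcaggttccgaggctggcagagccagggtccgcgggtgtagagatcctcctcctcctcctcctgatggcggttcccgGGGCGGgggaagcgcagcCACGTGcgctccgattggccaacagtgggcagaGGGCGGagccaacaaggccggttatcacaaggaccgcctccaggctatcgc
Kcnq5: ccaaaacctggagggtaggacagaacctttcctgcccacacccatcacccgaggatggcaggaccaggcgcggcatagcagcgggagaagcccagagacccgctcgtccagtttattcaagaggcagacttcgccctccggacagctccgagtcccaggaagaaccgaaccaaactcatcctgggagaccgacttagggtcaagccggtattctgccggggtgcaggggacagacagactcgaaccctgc
The Kcnc1 window holds 3 GC boxes and 1 E-box at 74.4% GC, and the Kcnj2 window 2 of each at 65.6% GC. The Kcnq5 window holds neither at 60.8% GC, beside a median of 52.4% over all 32851 promoters of the table. An E-box occurs in 66.2% of all windows of this length and in 19 of the 23 members that have an entry. Shares of all windows count every entry, and a gene may have several, while each member is counted by its first entry only. A GC box occurs in 32.7% of all windows and in 7 of the 23 members. The TATA box (TATAAA, 12.4% of all windows) and the cyclic AMP response element (TGACGTCA, 1.55%) were found in 0 of the 23. A match describes sequence and not binding.

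Library totals ran from 12770308 to 19739226 counts, and genes of the mitochondrial genome took 10.8% to 20.4% of them. Every pair of libraries in a group differed far beyond counting noise, so each counted as 1 sample. The tissue label fitted its markers: all 10 fast-fibre genes were in both tables, with a summed level of 82500 to 168000 CPM. CPM is a count scaled to a common library size, here by trimmed mean of M-values (TMM) over all 12 libraries. The slow-fibre genes that could be followed over all libraries varied inside groups. The summed level of Tpm3, Casq2 and Myh7b, the 3 of 10 slow-fibre genes in both tables, was 29.2, 119 and 115 CPM in Chow 8, 17 and 19. It ranged from 21.1 to 40.5 over the HFD libraries, from 16.5 to 68.8 over Vehicle and from 17.9 to 141 over PCN. Myh7, Myl2, Myl3, Tnnt1, Tnnc1 and Atp2a2 had counts for Chow and HFD only, so these markers do not measure slow fibres in Vehicle or PCN. Over HFD, Myh7 stood at 1.12 to 2.12 CPM. In bulk tissue, fewer cells of a type and less RNA per cell cannot be told apart.

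Inward rectifiers and voltage-gated channels made up most of the potassium channel message. Divided by exon length, voltage-gated genes took 47.0% and inward rectifiers 43.8% of the summed level of the 32 members, and 5 genes (Kcnj11, Kcna7, Kcnj12, Kcnj2 and Kcnc4) took 65.9% of it. Calcium- or sodium-activated channels took 7.52%, two-pore-domain channels 1.01% and voltage-gated auxiliary subunits 0.679%. These shares depend on the length used, which joins all annotated exons of a gene. The calcium-activated Kcnma1 had the highest mean of the 32 before division, 85.1 CPM, and was divided by 17.0 kb. The median member stood at 0.465 CPM per kb.

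Of the inward rectifiers, Kcnj11, the pore subunit Kir6.2 of the ATP-sensitive channel, had the highest level of any member at 23.0 CPM per kb. Kcnj12 (Kir2.2) stood at 16.1 and Kcnj2 (Kir2.1) at 12.4 CPM per kb, the strong rectifiers that clamp the resting potential. Kcnj8 (Kir6.1), the pore of the ATP-sensitive channel of blood vessels, stood at 2.52. The G-protein-gated Kcnj3 at 0.108 and Kcnj15 at 0.105 CPM per kb were near the bottom of the order.

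Of the voltage-gated genes, Kcna7 (Kv1.7), a Shaker-type channel, was highest at 20.4 CPM per kb. The Shaw-type genes Kcnc4 (Kv3.4) and Kcnc1 (Kv3.1), whose channels open and close fast, followed at 9.7 and 7.13. Of the slow, low-voltage channels of the KCNQ family, Kcnq5 stood at 3.96 and Kcnq1 at 0.13 CPM per kb. Modifier subunits that form no channel alone ran from 5.05 (Kcng4) through 0.989 (Kcnf1) to 0.156 (Kcnv2). The Shaker-type Kcna5 stood at 1.95, Kcna1 at 0.357, Kcna2 at 0.25, and Kcnh7, of the ERG family, was lowest of all 32 at 0.0407. The 2 auxiliary genes described were Kcne4 at 0.515 and Kcnab1, a beta subunit of Shaker channels, at 0.326 CPM per kb.

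Of the calcium- or sodium-activated genes, Kcnma1, the pore of the large-conductance BK channel, led at 5.01 CPM per kb and Kcnn1 (SK1), a small-conductance channel, followed at 3.57. Kcnn2 at 0.292, Kcnn3 at 0.273 and the sodium-activated Kcnt2 at 0.175 stood far lower. The 4 two-pore-domain genes described ran from 0.415 (Kcnk1) through 0.343 (Kcnk6) and 0.303 (Kcnk5) to 0.19 (Kcnk2) CPM per kb. Of the 41 genes in both tables that were not described, 29 reached 10 counts in no library, 6 in 1 library and 6 in 2. Kcnmb1, the BK beta subunit of smooth muscle, reached at most 4 counts in a library, Kcnn4 at most 10 and Kcne1l at most 6. Whether counting used strand is not stated, and exons of 14 of the 32 members overlap an antisense gene, so reads of the pair cannot be told apart. For Kcnq1, with 2 to 18 counts a library, the antisense Kcnq1ot1 had 848 to 1993.

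**Figure D1:**
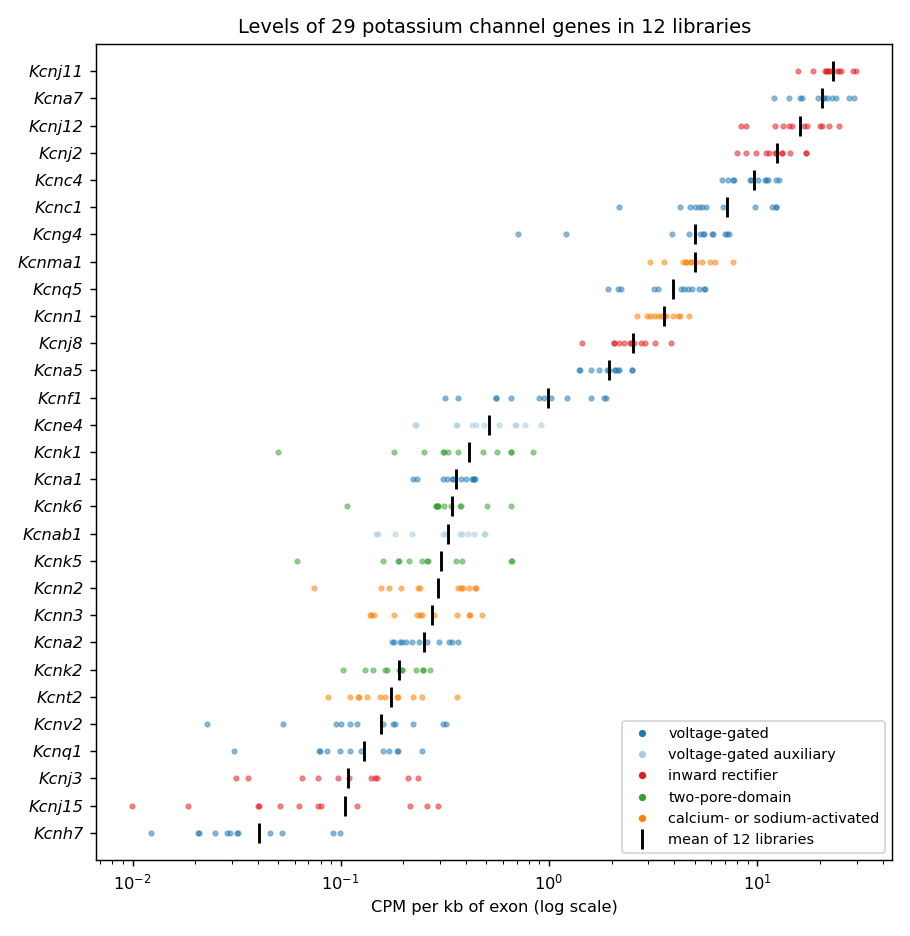
Level of 29 members in each of 12 libraries (points, coloured by channel class) and the mean over the 12 (black tick), in CPM per kb of exon on a log axis. A library with 0 counts is not drawn. Kcnj11 is at the top at 23.0 and Kcnh7 at the bottom at 0.0407 CPM per kb.

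Between neighbours in this order, the ranges over the 12 libraries overlapped in all 31 adjacent pairs. Both genes of a pair were measured in every library and the groups were pooled, so this overlap cannot show whether neighbours differ. Kcnj11 at 57.8 to 110 CPM over the 12 libraries was the steadiest of the abundant inward rectifiers, with a highest library 1.91 times its lowest, beside 1.76 for Kcnn1, 1.88 for Kcnc4 and 2.16 for Kcnj2. Among the 13 members with a mean of at least 100 counts, the widest spreads were 10.4 times for Kcng4 and 5.69 for Kcnc1. PCN 27 was the lowest library for 14 of 32 members and PCN 5 for 4, while PCN 27 was highest for 2, Kcnj11 and Kcnk5. The median coefficient of variation of the members was 26.5% in Chow, 25.1% in HFD, 27.6% in Vehicle and 42.5% in PCN. For those 13 members alone it was lower, at 30.7% for PCN, 22.2% for Vehicle, 15.4% for Chow and 10.8% for HFD. PCN libraries also differed from each other when all genes were taken. Over all genes, chi-square per gene against counting noise was 65.0, 95.8 and 108 for PCN pairs. HFD pairs had 19.6, 26.3 and 32.6, while the highest Vehicle pair had 96.9 and the highest Chow pair 75.4. Chi-square grows with the number of counts, so these values cannot be set beside the coefficients of variation of the members. Whether members spread more than other genes was not tested.

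The comparison of HFD with Chow asked what the diet does to muscle. No member passed the test in either direction, and no gene did: edgeR's quasi-likelihood test called 0 of 12686 genes (0%) at an adjusted p under 0.05, and 0 of the 30 members tested. Kcnq1 and Kcnj15 were too low to be tested. DESeq2 called 40 genes and 0 members. At an unadjusted p under 0.05 there were 6 members, or 20% of those tested beside 7.69% of all genes. Of these, 3 were higher in HFD (10%, beside 3.78% of genes) and 3 lower (10%, beside 3.91%). The same 6 were the ones whose Chow and HFD libraries did not overlap, beside 12.8% of all genes, or 5.75% higher and 7.05% lower. Without HFD 4, 3 members had such a p. The median log2 fold change of the tested members was -0.03, beside 0.001 over all genes. Every log2 fold change below is from the edgeR fit of the comparison named.

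Both strong inward rectifiers were among the 6, on opposite sides. Kcnj12 stood at 39.2, 36.7 and 40.2 CPM in libraries 8, 17 and 19 of Chow, against 67.6, 47.8 and 56.0 in HFD 4, 30 and 38. The 3 HFD libraries were all above the 3 Chow libraries, with a log2 fold change of 0.57 ± 0.15 (SE, edgeR unadjusted p = 0.003, adjusted p = 0.507). Kcnj2 stood at 93.5, 93.5 and 77.8 CPM in the Chow libraries and at 62.2, 71.4 and 43.3 in HFD, all lower. Its fitted value was -0.57 ± 0.18 (edgeR adjusted p = 0.618). The ATP-sensitive pore genes lay closer together: mean CPM of Kcnj11 was 75.9 ± 6.87 for Chow and 83.9 ± 4.65 for HFD (SD, n = 3), and that of Kcnj8 was 6.66 ± 0.997 and 5.88 ± 0.634. Libraries overlapped for both genes.

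The voltage-gated Kcnc4 was among the 6 and higher in HFD. It stood at 33.9, 26.5 and 28.3 CPM in the Chow libraries and at 37.2, 41.3 and 34.2 in HFD, so that HFD 38 lay just above Chow 8. Its log2 fold change was 0.36 ± 0.14 (edgeR adjusted p = 0.635). Without Chow 17 and 19 together, its value was 0.15. Chow 19 stood with HFD in Kcnc1, at 117 CPM beside 64.6 in Chow 8, 51.1 in Chow 17 and 92.6, 111 and 116 in HFD. Without Chow 19, 2 members passed the edgeR test in place of 0, Kcnc1 among them, and 219 genes in place of 0. Kcna7 averaged 57.0 ± 8.79 CPM for Chow and 47.6 ± 4.13 for HFD (SD, n = 3), and Kcnq5 averaged 34.0 ± 9.35 and 38.5 ± 3.48.

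The other 2 lower members were a leak channel and a calcium-activated one. Kcnk1 (TWIK1), a two-pore-domain channel, stood at 0.732, 1.86 and 1.47 CPM in the Chow libraries and at 0.404, 0.559 and 0.111 in HFD, or 9 to 29 and 2 to 8 counts. All 3 HFD libraries were lower, at -1.96 ± 0.57 (edgeR adjusted p = 0.544), and the value was -1.06 without Chow 17 and Chow 19. Kcnn1 stood at 15.9, 21.5 and 16.3 CPM in the Chow libraries and at 12.2, 13.6 and 14.0 in HFD, also all lower, at -0.41 ± 0.15 (edgeR adjusted p = 0.635), and -0.27 without Chow 17. Kcnma1 averaged 101 ± 25.7 CPM for Chow and 97.9 ± 10.5 for HFD, with overlapping libraries. The slow-fibre myosin Myh7 was high in Chow 17 and 19 alone among the 6 libraries, with 2.44, 196 and 330 CPM in Chow 8, 17 and 19, against 1.12 to 2.12 over the HFD libraries. Fast-fibre genes summed to 115000 to 147000 CPM in Chow and 115000 to 168000 in HFD. All 9 slow-fibre genes tested were fitted lower in HFD (median -4.44 on the log2 scale), and 0 passed the edgeR test. Their part in these differences was not tested. Without a filter on low counts, Kcnj12, Kcnj2 and Kcnk1 passed the edgeR test (adjusted p = 0.0428, 0.0301 and 0.0385), among 237 genes.

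**Figure D2:**
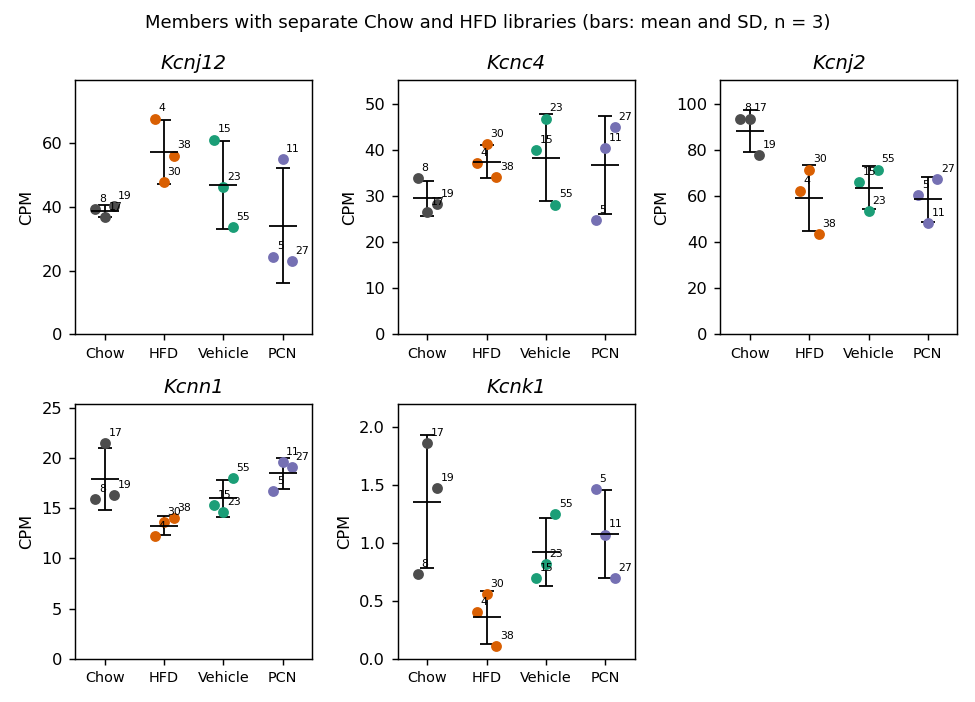
CPM of 5 members whose Chow and HFD libraries do not overlap, in every library of the 4 groups (points, numbered by library; horizontal mark and bars: mean and SD, n = 3). Kcnj12 and Kcnc4 are higher in HFD than in Chow and Kcnj2, Kcnn1 and Kcnk1 lower.

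The comparison of Vehicle with HFD set injected against uninjected mice on the same diet. The Shaw-type gene Kcnc1 fell by 2.25-fold, and no member passed the test in the higher direction. In the edgeR fit 3 of 32 members tested passed (9.38%), all lower and Kcnc1 among them, beside 1.51% of 12746 genes in either direction, 0.526% higher and 0.989% lower. The groups come from separate tables of raw counts, so injection and table cannot be told apart. The comparison shares its HFD libraries with the diet comparison and its Vehicle libraries with the PCN comparison.

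Kcnc1 lies at chr7:46396497-46438704 (GRCm38, as are all gene positions here). It stood at 92.6, 111 and 116 CPM in HFD 4, 30 and 38 and at 40.3, 53.7 and 47.7 in Vehicle 15, 23 and 55, and the groups did not overlap. Its log2 fold change was -1.17 ± 0.15 (SE, edgeR adjusted p = 0.0132). Kcnc4, of the same family, stood at 37.6 ± 3.52 CPM in HFD and 38.3 ± 9.46 in Vehicle (n = 3), a log2 fold change of 0.03 ± 0.18. Kcna7 and Kcnj11, the members with the highest levels per kb of exon, had fitted values of -0.29 ± 0.17 and 0.14 ± 0.14.

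PCN libraries, which were injected too, lay inside or below the Vehicle range for Kcnc1, at 49.9, 45.2 and 20.5 CPM in PCN 5, 11 and 27. All 6 injected libraries, at 20.5 to 53.7 CPM, lay below all 3 HFD libraries. Chow spanned 51.1 to 117 CPM, with Chow 19 near HFD and Chow 8 and 17 nearer the injected libraries.

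**Figure D3:**
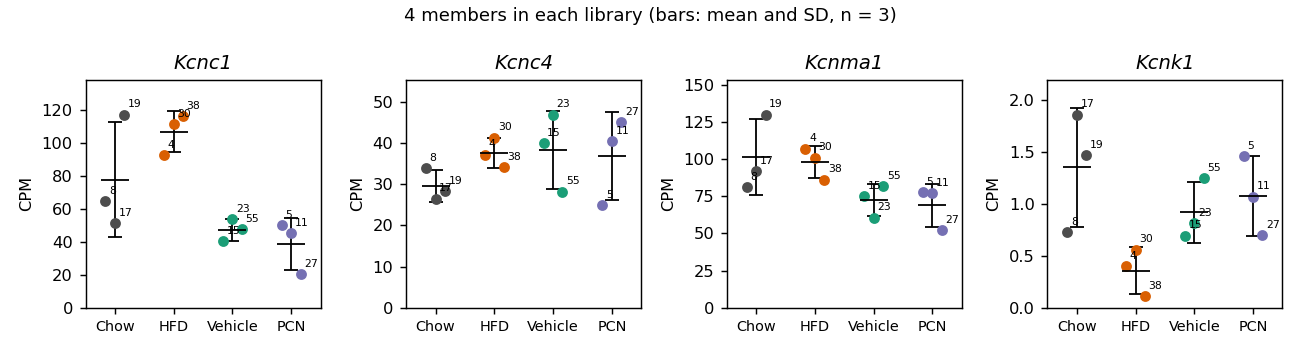
CPM of Kcnc1, Kcnc4, Kcnma1 and Kcnk1 in every library (points, numbered by library; horizontal mark and bars: mean and SD, n = 3). Vehicle and PCN lie below HFD for Kcnc1, at 20.5 to 53.7 against 92.6 to 116 CPM, while they overlap HFD for Kcnc4.

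Among calcium-activated and leak channels no member passed. Kcnma1 stood at 107, 101 and 86.2 CPM in HFD and at 74.9, 60.6 and 81.7 in Vehicle, and the groups did not overlap (-0.43 ± 0.15, edgeR adjusted p = 0.162). It passed, at an adjusted p of 0.0434, without Vehicle 55. Kcnk1 stood at 0.404, 0.559 and 0.111 CPM in HFD and at 0.694, 0.813 and 1.25 in Vehicle, all higher (1.40 ± 0.57, edgeR adjusted p = 0.232), and its value was 0.91 without HFD 38. Kcnn1 was the other member with separate groups, at 12.2, 13.6 and 14.0 CPM in HFD and 15.3, 14.6 and 18.0 in Vehicle (0.27 ± 0.14). In all, 6 of 32 members had groups that did not overlap, beside 23.4% of genes. Of these 2 were higher in Vehicle (6.25%, beside 12.1% of genes) and 4 lower (12.5%, beside 11.3%). At an unadjusted p under 0.05 there were 5 members (15.6%, beside 17.8% of genes), so that the share over both directions together is near the background. By direction, 1 was higher (3.12%, beside 8.66% of genes) and 4 lower (12.5%, beside 9.17%). There were 9 such members without Vehicle 55 and 3 without HFD 4. The median log2 fold change of the members was -0.08, beside -0.001 over all genes.

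The calls depended on which libraries entered. Fitted over all 12 libraries with one shared spread, edgeR called 0 genes and 0 members, with adjusted p = 0.231 for Kcnc1, while 4 members (Kcnc1 and Kcnk1 among them) had an unadjusted p under 0.05. DESeq2 on the 2 groups called 2 members, Kcnc1 among them. Kcnc1 did not pass without HFD 30 (adjusted p = 0.0844), without Vehicle 23 (0.106) or without Vehicle 15 (0.0769), and members passing numbered 0, 0 and 1. Genes past the threshold ran from 0 (without HFD 30 or Vehicle 23) to 1180 (without Vehicle 55). The log2 fold change of Kcnc1 ran from -1.27 to -1.07 when each library was left out. Denervation genes (9 of 9 in both tables), which include receptor subunits and myosins, summed to 204 to 258 CPM in HFD and 141 to 185 in Vehicle, which did not overlap. Of 7 tested, 2 were fitted higher and 5 lower, and 0 passed. The receptor subunit Chrng added little, at 0.0557 to 0.14 CPM in HFD and 0.0542 to 0.542 in Vehicle. Fast-fibre genes summed to 115000 to 168000 and 89700 to 154000 CPM. Fibroblast genes (6 of 6 in both tables) summed to 432 to 793 CPM over HFD and 298 to 428 over Vehicle, which did not overlap, and 5 of 6 had lower fitted values. One of them, the collagen gene Col1a1, passed the edgeR test as lower. Their part in the result was not tested.

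**Figure D4:**
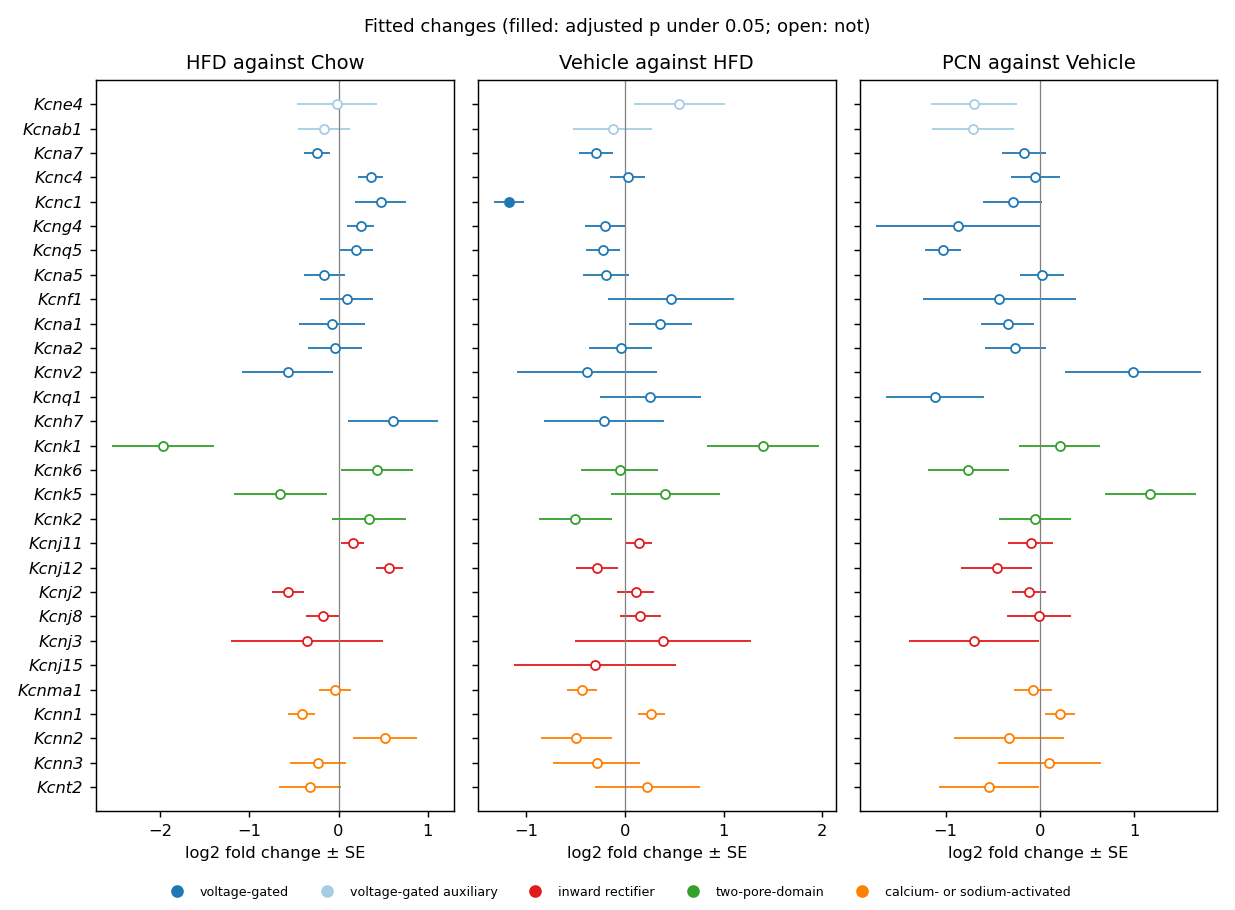
Fitted log2 fold change and SE of 29 members in the 3 comparisons (points; bars: SE; colour: channel class; filled: adjusted p under 0.05 in the edgeR fit). The filled point is Kcnc1 in Vehicle against HFD, and the other comparisons share its libraries.

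The comparison of PCN with Vehicle asked what the steroid adds in injected mice. No member passed in either direction: edgeR called 0 of 12833 genes (0%) and 0 of 30 members, and DESeq2 called 0 genes. Kcnh7 and Kcnj15 were too low to be tested. At an unadjusted p under 0.05 there were 2 members, Kcnq5 lower and Kcnk5 higher, or 6.67% beside 2.82% of genes (1.47% lower and 1.35% higher). There were 7 without PCN 11, and Kcnq5 alone remained without PCN 27 or without Vehicle 23. Groups did not overlap for 4 members, all lower in PCN (Kcna1, Kcnk6, Kcnq1 and Kcnq5), or 13.3% beside 8.4% of genes in either direction, 4.18% lower and 4.22% higher. The median log2 fold change of the tested members was -0.16, beside 0.014 over all genes, and 23 of 30 fitted values were below 0. That median was -0.36 without PCN 11 and -0.03 without PCN 27.

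Kcnq5 (chr1:21398403-21961942), a slow KCNQ channel, was at 33.2, 25.6 and 40.3 CPM in Vehicle 15, 23 and 55 and at 16.5, 17.1 and 14.8 in PCN 5, 11 and 27. The PCN libraries were close together and all below the lowest Vehicle library. Chow libraries stood at 34.3, 43.2 and 24.5 CPM and HFD libraries at 42.5, 37.3 and 35.9, so PCN was lowest of the 4 groups. Its log2 fold change was -1.03 ± 0.19 (SE, edgeR unadjusted p = 0.000352, adjusted p = 0.998), the lowest p of all 12833 genes, and leaving out each library gave -1.18 to -0.88. Without a filter on low counts its adjusted p was 0.00135 in edgeR, among 21 genes, and DESeq2 gave 0.106. The antisense transcript Gm26580 overlaps its exons. Summed smooth-muscle and pericyte genes, 10 of 10 in both tables, ranged from 304 to 413 CPM in Vehicle and 232 to 440 in PCN. Adipocyte genes (8 of 8 in both tables) summed to 104 to 344 CPM over Vehicle and 111 to 137 over PCN, and all 8 had lower fitted values in PCN, with a median log2 fold change of -1.05. Fibroblast genes (6 of 6) summed to 298 to 428 and 256 to 406 CPM, and all 6 had lower fitted values, with a median of -0.46. In the edgeR fit 0 genes of these lists passed, and their part in the result was not tested.

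Kcnk5 (TASK2), an acid-sensitive two-pore-domain channel, was at 1.22, 0.650 and 0.542 CPM in Vehicle and 2.23, 0.882 and 2.27 in PCN. PCN 5 and 27 were above and PCN 11 lay among the Vehicle libraries (1.17 ± 0.48, edgeR unadjusted p = 0.0347, adjusted p = 0.998). Kcna1 averaged 2.01 ± 0.102 CPM over Vehicle and 1.59 ± 0.0937 over PCN (SD, n = 3), at 35 to 38 and 26 to 32 counts. Its log2 fold change was -0.34 ± 0.28 (SE, edgeR unadjusted p = 0.259). Kcnk6 averaged 1.69 ± 0.352 and 0.981 ± 0.466 CPM (-0.76 ± 0.43, edgeR unadjusted p = 0.107). Kcnq1 was at 0.701 ± 0.0543 and 0.32 ± 0.191 CPM, at 12 to 14 and 2 to 8 counts (-1.11 ± 0.52, edgeR unadjusted p = 0.0586).

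**Figure D5:**
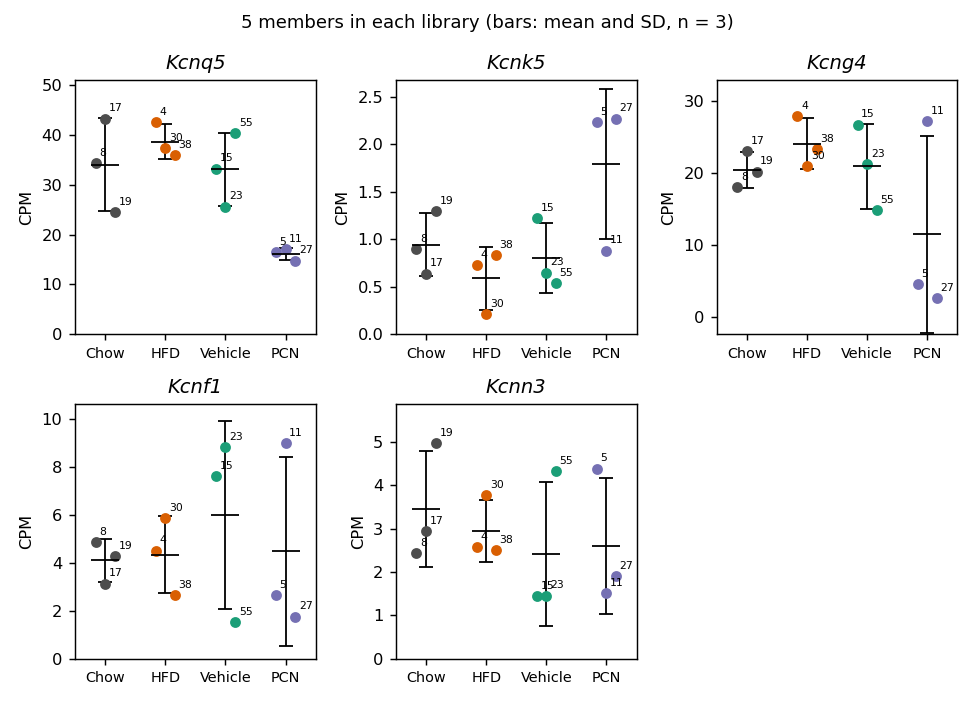
CPM of Kcnq5, Kcnk5, Kcng4, Kcnf1 and Kcnn3 in every library (points, numbered by library; horizontal mark and bars: mean and SD, n = 3; the lower bar of Kcng4 in PCN passes below 0). Kcnq5 is at 14.8 to 17.1 CPM in PCN, below the other groups.

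Members of several channel classes, some modifier subunits among them, split the PCN libraries, though not all in the same direction. Kcng4 and Kcnf1, chosen for mention after their values were seen, were high in PCN 11 and low in PCN 5 and 27. Kcng4 was at 4.58, 27.2 and 2.69 CPM in PCN 5, 11 and 27 and at 26.7, 21.2 and 14.9 in Vehicle 15, 23 and 55. Kcnf1 was at 2.67, 9.01 and 1.76 CPM in PCN and 7.64, 8.84 and 1.52 in Vehicle. In both genes Vehicle 55 was the lowest of its group. The modifier Kcnv2 went the other way, at 1.59, 0.567 and 0.928 CPM in PCN 5, 11 and 27. It was at 0.116, 0.271 and 1.14 CPM in Vehicle 15, 23 and 55, on low counts. Numbers in the library titles are above 7 for PCN 11, Vehicle 15 and Vehicle 23 and at most 7 for PCN 5, PCN 27 and Vehicle 55, and what they stand for is not stated. Values of 8 of 30 members did not overlap between these libraries. Kcnab1, Kcne4, Kcnf1, Kcng4, Kcnj12 and Kcnt2 were higher in those above 7, and Kcnn3 and Kcnv2 lower. The 8 are 26.7% of the members tested, beside 23.5% of genes. A share this close to that of all genes says nothing particular about the members.

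Other genes of muscle excitability, 40 on a list with 38 in both tables, showed 1 call, which is near the background. Across 32, 33 and 32 of them tested in HFD against Chow, PCN against Vehicle and Vehicle against HFD, 0, 0 and 1 passed the edgeR test, beside 0%, 0% and 1.51% of all genes. The 1 was Atp1b2, a beta subunit of the sodium pump that restores the potassium gradient. It was at 84.6, 76.3 and 56.8 CPM in HFD and 27.4, 20.4 and 18.3 in Vehicle, and the fall was -1.72 ± 0.19 (edgeR adjusted p = 0.0113). Like Kcnc1, Atp1b2 did not pass over all 12 libraries, without HFD 30 or without Vehicle 23, where 0 genes did. Injection and table cannot be told apart here either. PCN libraries stood at 17.7, 20.7 and 16.2 CPM and Chow 19 again nearest HFD, at 57.2 beside 26.8 and 12.2 in Chow 8 and 17. Abcc8 (SUR1), a regulatory subunit that pairs with Kcnj11 in some tissues, had 0.976, 0.641 and 1.53 CPM over Chow and 3.47, 3.71 and 3.51 in HFD, and did not pass (1.75 ± 0.33, edgeR adjusted p = 0.274). Abcc9 (SUR2), the usual partner in muscle, averaged 318 ± 22.6 and 404 ± 52.0 CPM (SD, n = 3).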

How the data were processed

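The authors deposited raw counts per Ensembl gene, not normalised, in one table for Chow and HFD and another for Vehicle and PCN. The submitters' processing notes name HISAT2, HTSeq, DESeq2, GRCm38 and mm10. Their versions, the strand setting and the annotation were not given in the sources used here. The number of per-sample columns not used was 0. Tables were joined on 21976 shared genes. Levels are TMM-normalised CPM over 12 libraries, computed here, per kb of exon of GENCODE M21 (GRCm38) for comparing genes. Every comparison used the 6 libraries of its 2 groups in edgeR 4.0.16 (R 4.3.3; filterByExpr with a minimum count of 10, TMM, robust quasi-likelihood test, Benjamini-Hochberg over all genes, threshold 0.05). DESeq2 1.42.0, no filter, a filter at a mean of 1 CPM, all 12 libraries and leaving out each library were alternatives. Scripts were tested on simulated data. Members and lists were chosen with earlier results of these data known. Some members are not reported here by name, though counts over the members include them. Detail went to members with adjusted p under 0.05, up to 12 with the lowest unadjusted p under 0.05 in each comparison, the highest of each class, and 16 set by name. Sequences are from RefSeq, GRCm38.p6.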

Additional observations from a re-analysis of the deposited data

How the results depend on the processing

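No paired analysis was possible because library numbers are unique to each library. In HFD against Chow the count of members past the threshold was 3 with no filter and ranged from 0 to 2 when each library was left out, and genes past it were 0 in the fit reported, 40 in DESeq2, 237 with no filter, 219 without Chow 19 and 7 without Chow 8. The median of the members was -0.03, and 0.09 with genes or members of a mean of at least 1 CPM, 0.13 without Chow 17 and 19, and -0.03 to 0.11 when each library was left out. In PCN against Vehicle, 1 member passed with no filter (21 genes), and leaving out libraries gave 0 and medians of -0.36 (without PCN 11) to -0.03 (without PCN 27). In Vehicle against HFD, members numbered 0 with all 12 libraries and 0 to 4 when each was left out, with medians of -0.13 to 0.04. Genes past the threshold there were 193 in the fit reported, 0 with all 12 libraries, 609 in DESeq2, 571 with no filter, and 0 to 1180 when each was left out. A block for library title number in PCN against Vehicle, chosen after seeing the data, gave 0 members and a median of -0.11. The cause of these moves was not tested. Low counts limit Kcna1, Kcnk1, Kcnk5, Kcnk6, Kcnq1 and Kcnh7.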
